A study of Rattus norvegicus with 6 samples.

Results

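Fragments of the arginine tRNAs were followed at every position of the molecule in small RNA libraries of rat muscle. The members were the distinct sequences that matched a mature nuclear tRNA of anticodon Arg-ACG, Arg-CCG, Arg-CCT, Arg-TCG or Arg-TCT without a mismatch and matched no other mature tRNA. There were 868 such sequences among 77567 in the whole table, and they took 8643 of 6277611 tRNA-aligned reads. A further 14 exact sequences, with 60 reads, also matched another amino acid family and were left out.

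The data came from 3 experimental and 3 control libraries, grouped by their titles alone. All 6 were labelled as Lewis rat muscle of animals 6 to 8 weeks old. The series title concerns tRNA-derived RNAs as markers of acute rejection of a composite tissue graft, in which skin, muscle and other tissues are transplanted together, but the labels do not say what the experimental animals received, nor who donated or hosted a graft. One label of the samples and the design text speak of skin, and the design text of mice, which conflicts with the organism and tissue given. The table holds tRNA reads only, so the tissue could not be checked against marker genes. The labels do not say if libraries of one group are different animals. Every p-value given here refers to the spread over the libraries, and part of that spread may be technical. In the fits of fragments and anticodon sums it was pooled, wholly or in part, over all that were tested, unless their own spread is named.

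A tRNA folds into a cloverleaf. From the 5' end it carries a D arm, an anticodon arm whose loop holds the 3 bases that read the codon, a T arm, and a 3' end to which an enzyme adds the bases CCA, where the amino acid is attached. Cuts in the anticodon loop by ribonucleases such as angiogenin give long 5' and 3' fragments known as tiRNAs, and cuts in the D or T loop give shorter pieces. Arginine is read by more codons than most amino acids: Arg-ACG, Arg-CCG and Arg-TCG read codons that begin with CG, and Arg-CCT and Arg-TCT read the pair AGG and AGA. In mice, a mutation of a brain-enriched Arg-TCT tRNA, together with loss of a ribosome rescue factor, is known to stall ribosomes at AGA codons.

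The deposited set holds 21 mature arginine tRNAs, of which 20 had at least 1 member. The sequences that the results turn on are printed here 5' to 3' in the letters of the files. Coordinates are those of the files, counted from 1. The files give neither a strand nor a genome build, and positions in the mature tRNA count from 1 at its first base. In all of the printed tRNAs the anticodon, in capitals, lies at positions 34 to 36, and the 7 bases of its loop are 32 to 38. The last 3 bases are the added CCA.
tRNA-Arg-CCT-1-1, chr10:103964872-103964944: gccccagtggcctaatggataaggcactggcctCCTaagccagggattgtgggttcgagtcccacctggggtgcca
tRNA-Arg-CCT-4-1, chr4:66276179-66276251: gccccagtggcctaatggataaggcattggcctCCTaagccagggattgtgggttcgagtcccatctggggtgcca
tRNA-Arg-CCG-3-1, chr10:95225812-95225884: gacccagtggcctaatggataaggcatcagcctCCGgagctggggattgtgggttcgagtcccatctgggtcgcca
tRNA-Arg-ACG-1-1, chr15:33166226-33166298: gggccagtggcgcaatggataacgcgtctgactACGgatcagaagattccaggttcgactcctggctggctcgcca
tRNA-Arg-TCG-1-1, chr1:141189065-141189137: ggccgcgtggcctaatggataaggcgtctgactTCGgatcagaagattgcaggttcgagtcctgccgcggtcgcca
tRNA-Arg-TCT-2-1, chr1:228444948-228445033: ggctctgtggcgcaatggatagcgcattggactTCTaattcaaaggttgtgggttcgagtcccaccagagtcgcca

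These tRNAs are close to one another, which limits how far reads can be assigned. Arg-CCT-1-1 and Arg-CCT-4-1 share 74 of 76 bases, and Arg-CCG-3-1 shares 67 of 76 with Arg-CCT-4-1 but 61 of 76 with Arg-CCG-1-1. The gene of Arg-TCT-2-1 spans 86 bases, 13 more than the mature body, which is the length of an intron that the mature form lacks. Of the members, 478 matched 1 tRNA and 390 matched several. The 67 members that matched more than 1 arginine anticodon held 308 reads, which were split equally between those anticodons.

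The family was made of many rare pieces. A single read in all 6 libraries was the only evidence for 361 members, and 31 members had 50 reads or more. Only 55 were seen in every library, 438 had no control read and 128 had no experimental read. The experimental libraries held 1696 to 2516 arginine reads and the control libraries 404 to 885, so a rare member was less likely to be read in the control libraries. The 10 most abundant members held 27.4% of the arginine reads.

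Arginine fragments were a small part of the tRNA reads in both groups. They took 0.272% (2383 of 876494 reads), 0.131% (2516 of 1927269) and 0.0909% (1696 of 1866227) in the experimental libraries. In the control libraries they took 0.161% (885 of 550004), 0.102% (759 of 740627) and 0.127% (404 of 316990). The 95% Wilson intervals, which cover counting error only because PCR copies are not independent molecules, were at widest 0.261% to 0.283% in an experimental library and 0.116% to 0.140% in a control library. The groups overlapped, with 0.164% ± 0.0951 in the experimental and 0.130% ± 0.0293 in the control libraries (SD, n = 3 each), and no difference was shown by a two-sided exact permutation test over libraries (p = 0.8, where 3 against 3 libraries cannot go below 0.1). In tissue libraries, fewer cells of a type and less RNA per cell cannot be told apart. The higher experimental mean rested on experimental library 1, since the difference was -0.0196 percentage points without it.

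Most arginine reads came from inside the tRNA. Internal reads, which start after base 1 and end before the last 3 bases, took 87.2%, 61.7% and 68.8% of arginine reads in the experimental libraries and 70.1%, 56.8% and 67.6% in the control libraries. The means were 72.6% ± 13.2 experimental and 64.8% ± 7.06 control (SD, n = 3 each), and the groups overlapped (exact permutation p = 0.5). Internal reads include those that end at 72 or 73, short of the CCA. Those ending at 72 took 16.9% of arginine reads in control library 1 and 0.294% to 3.96% in each other library. Fragments at the 3' end that start after the anticodon loop were the next class, with 21.5% ± 10.8 in the experimental and 29.1% ± 5.76 in the control libraries (exact permutation p = 0.5). The mean length was 21.5 ± 2.64 nt in the experimental and 23.3 ± 1.86 nt in the control libraries (exact permutation p = 0.5).

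**Figure D1:**
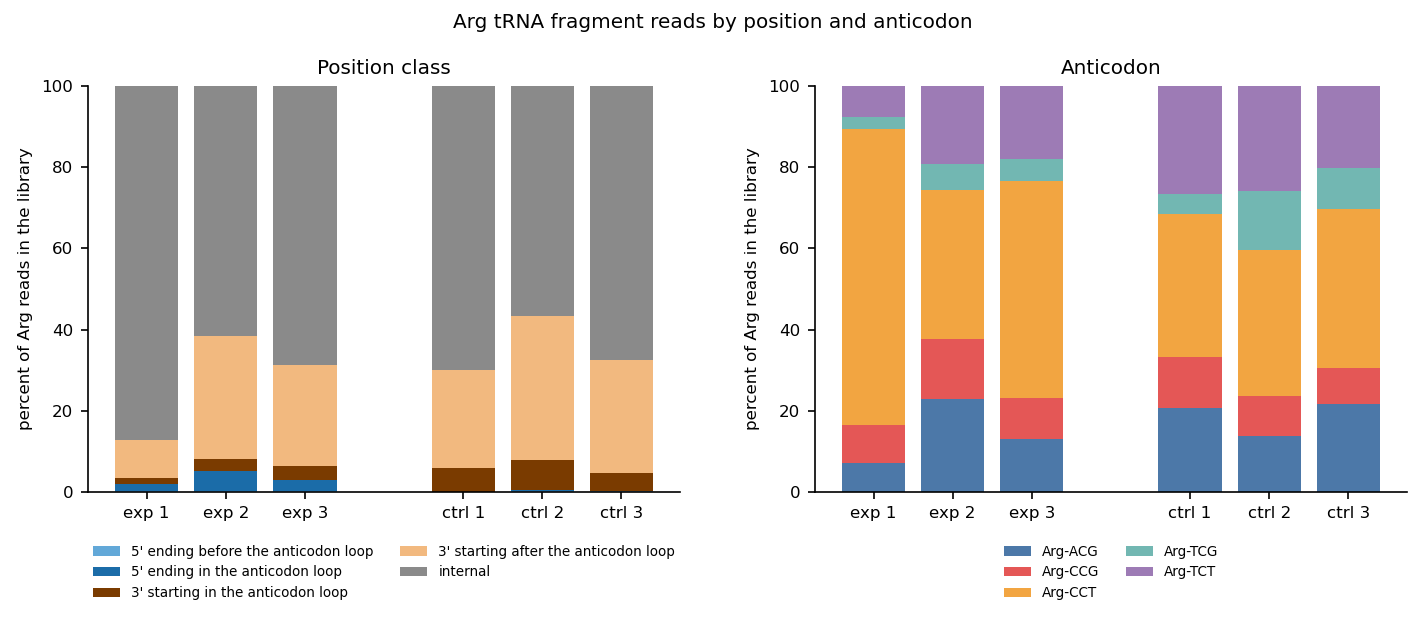
Percent of arginine tRNA reads in each library by position class (left) and by anticodon (right), with the 3 experimental libraries left of the 3 control libraries. Grey internal reads fill between 56.8% and 87.2% of every bar, and Arg-CCT takes between 35.1% and 72.8%.

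This layout set arginine apart from the bulk of the tRNA reads. Within each library, internal reads took 68.7% ± 10.4 of arginine reads, against 2.67% ± 1.40 of the reads of all other nuclear tRNAs (SD over 6 libraries). Fragments of the 5' end that stop in the anticodon loop took 1.61% ± 2.00 in arginine tRNAs and 74.8% ± 11.6 in the other nuclear tRNAs. Internal reads were more frequent in arginine tRNAs in 6 of 6 libraries, and 5' fragments ending in the loop were less frequent in 6 of 6. By a two-sided exact sign-flip permutation test of the difference within libraries both gave p = 0.03125, the smallest that 6 libraries allow, and an adjusted p of 0.0357 over 8 measures.

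Further classes also differed in every library. Fragments at the 5' end that stop before the loop took 0.185% of arginine reads against 19.3% of the rest. At the 3' end, fragments that start in the loop took 4.19% of arginine reads against 0.174% of the rest, and those that start after it took 25.3% of arginine reads against 1.60% of the rest. Arginine fragments were also shorter, at 22.4 ± 2.27 nt against 31.2 ± 0.607 nt in the other nuclear tRNAs. Each of these 4 differences had the same direction in 6 of 6 libraries and the same exact permutation p and adjusted p as above.

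Glycine fragments held 3398468 reads and so dominated the rest. Without them the differences in internal reads (55.1 percentage points) and in 5' fragments ending in the loop (-42.3) stood, each with an exact permutation p of 0.0417 after adjustment. The excess of 3' fragments that start after the loop was then 13.3 percentage points with an adjusted p of 0.107, so that this one difference was not shown against the other tRNAs without glycine.

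Other families had layouts of their own. Taking each family's mean over the 6 libraries, 3 of 22 nuclear families had a higher internal share than Arg, namely Met (93.7%), iMet (81.0%) and Pro (72.3%). Asp had 59.8% internal reads, and Arg was above it in 5 of 6 libraries, with a mean difference of 8.85 ± 17.9 percentage points. Gln had 39.8% and Lys 17.8% internal reads, both below Arg in 6 of 6 libraries. Asp held 24.3% of its reads in 3' fragments that start in the loop, Gln held 58.5% in 3' fragments that start after it and Lys 74.6% in 5' fragments that end in the loop. No test was made between single families.

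**Figure D2:**
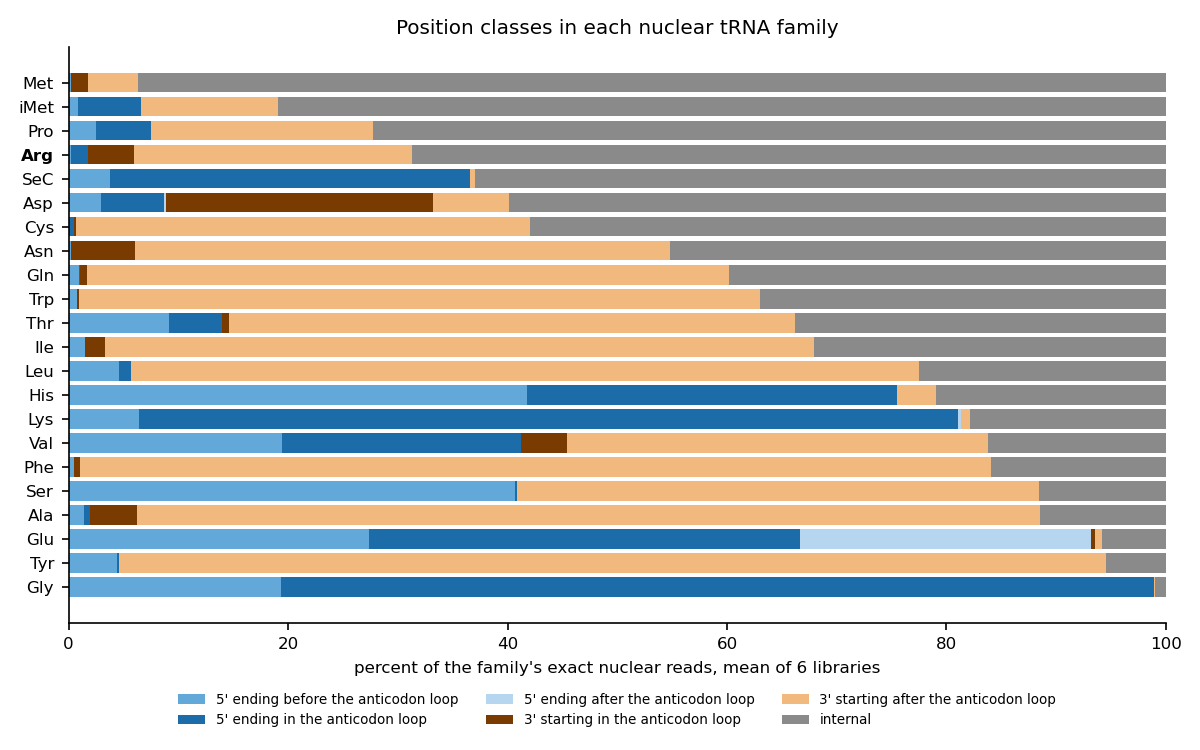
Position classes in each of 22 nuclear tRNA families, as percent of the family's exact reads (horizontal axis, mean of 6 libraries), ordered by internal share. Arg, in bold, stands among the families made mostly of internal reads, far from Gly, Glu and Lys with their 5' fragments.

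Arginine fragments started and ended at a few places. Starts gathered at positions 12 to 16, in the D arm, and from position 35 to 43, in the anticodon and just after it. A smaller group started at 59 to 62, in the T arm. Ends gathered at 28 to 31, just before the anticodon loop, at 51 to 57, in the T arm, and at the 3' end.

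**Figure D3:**
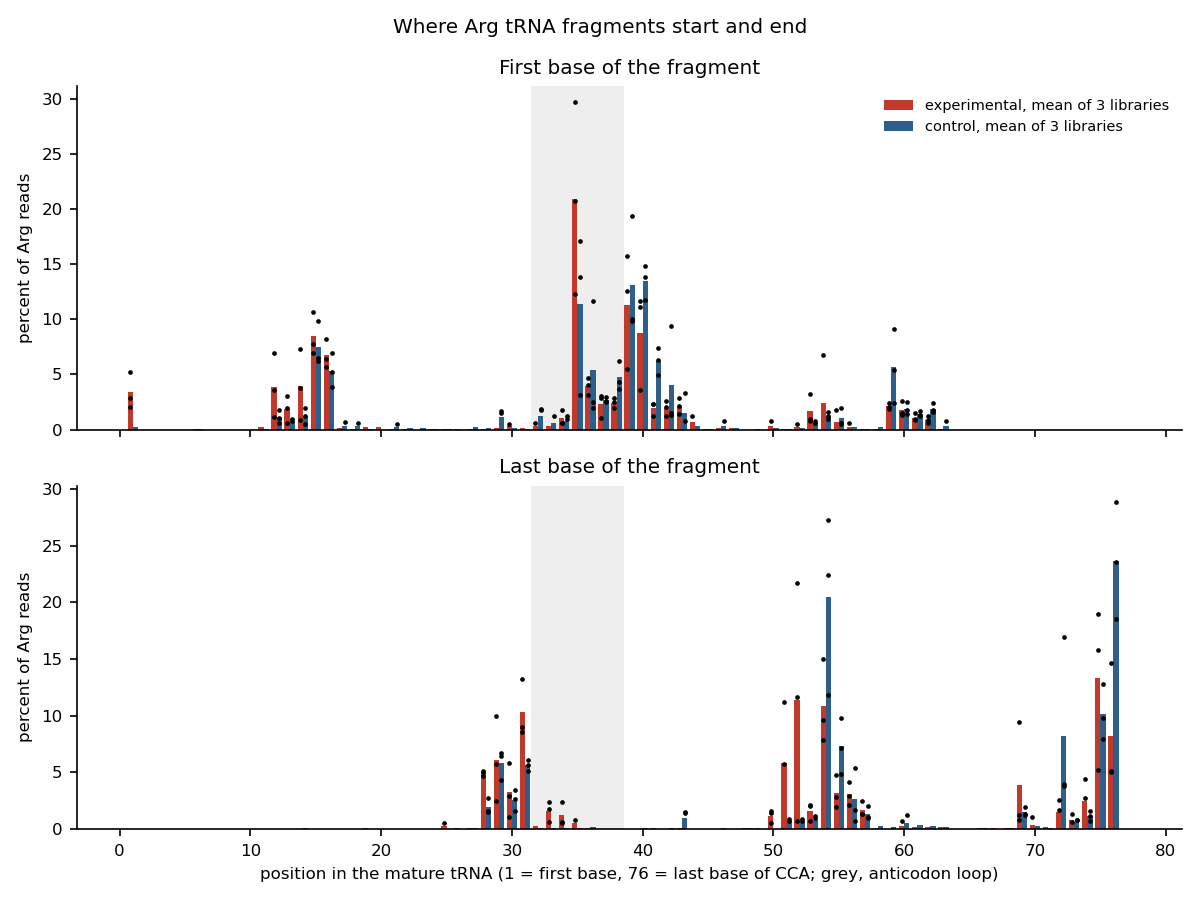
Percent of arginine reads by first base (top) and last base (bottom) along the mature tRNA, as the mean of 3 experimental libraries (red, left of each pair) and of 3 control libraries (blue), with a point for each library above 0.5%. Starts pile up at 12 to 16, 35 to 43 and, less so, 59 to 62, and ends at 28 to 31, 51 to 57 and 72 to 76.

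Among anticodons, Arg-CCT was the main source of reads. It gave 72.8%, 36.6% and 53.6% of arginine reads in the experimental libraries and 35.1%, 35.8% and 39.1% in the control libraries. Experimental libraries 1 and 3 lay above every control library and experimental library 2 lay within their range (54.3% ± 18.1 experimental and 36.7% ± 2.15 control, exact permutation p = 0.2, adjusted p = 0.5 over 5 anticodons). Arg-TCT gave 7.64%, 19.2% and 18.0% in the experimental and 26.7%, 26.0% and 20.3% in the control libraries, so that the groups did not overlap. With 14.9% ± 6.36 experimental and 24.3% ± 3.50 control, its exact permutation p was 0.1, the smallest the design allows, and 0.5 after adjustment.

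The other anticodons overlapped between groups. Arg-ACG gave 14.3% ± 7.99 in the experimental and 18.6% ± 4.27 in the control libraries (exact permutation p = 0.6). Arg-CCG gave 11.5% ± 2.90 experimental and 10.6% ± 1.93 control (exact permutation p = 0.6), and Arg-TCG gave 4.93% ± 1.76 experimental and 9.81% ± 4.79 control (p = 0.3). Shares of one whole are tied to each other: a higher share of Arg-CCT lowers the others.

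Summed per anticodon and fitted beside all other nuclear and mitochondrial anticodons, no arginine anticodon passed the test. The fit used limma voom, which models log2 CPM (read counts scaled to a common library size) with a weight for each count, on 69 anticodons. It called 1 of them, 1.45%, at an adjusted p under 0.05, and that one was Lys-CTT. None of the 5 arginine sums was called, and none had an unadjusted p under 0.05. Arg-CCT had 1734, 921 and 910 reads in the experimental and 310, 272 and 158 in the control libraries, with a log2 fold change of 1.16 ± 0.69 (SE, 95% interval -0.19 to 2.52, adjusted p = 0.454). Arg-CCG had 0.76 ± 0.60, with an interval from -0.42 to 1.94. Arg-ACG had 0.14 ± 0.62, Arg-TCT had -0.12 ± 0.63 and Arg-TCG had -0.28 ± 0.54, and their signs turned under other scalings or without single libraries. Each of the 5 intervals includes a 2-fold change in at least 1 direction.

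Fragment by fragment, few arginine members had enough reads to be tested. Of the 868 members, 16 passed the filter on low counts, and limma voom called 2 higher and 1 lower in the experimental libraries at an adjusted p under 0.05. All 3 called members had reached the filter, 12.4 CPM in 3 libraries, through the group in which they are high and in no library of the other group, so the filter had already selected for their difference and their counts and p-values are given as a description. The same holds for the uncalled Arg-CCG 41-54, and the other 12 members reached that level in libraries of both groups. Over all 2226 fragments tested, 18.7% were called higher and 7.64% were called lower. The median log2 fold change was -0.14 over the 16 members and 0.21 over all fragments. The median over all fragments was 0.01 with median-of-ratios scaling and -0.07 with library totals. In 3 of the 16 members every experimental library lay on one side of every control library, against 40.7% of all fragments tested.

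In that fit all fragments shared 1 pooled spread. With each fragment's own spread in the same limma fit, 1.03% of all fragments and 0 of the 16 members were called, although 3 of the 16 members and 590 of all fragments had an unadjusted p under 0.05. The 3 calls on arginine members therefore hold under the pooled spread and not under their own.

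The called fragments were these, with any part of the added CCA in capitals.
Arg-CCG 1-33: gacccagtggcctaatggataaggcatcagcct
Arg-CCG 15-28: atggataaggcatc
Arg-CCT 37-76: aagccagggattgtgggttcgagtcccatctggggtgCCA

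The first is a long 5' fragment of Arg-CCG-3-1, which ends inside the anticodon loop. It had 15, 48 and 30 reads in the experimental libraries and 0 reads in each of the 3 control libraries. Pooled over the group it stood at 19.9 CPM of all tRNA-aligned reads. This is 10.7-fold the level of 3 counts over all 3 control libraries (1.87 CPM), a limit for counting error alone. Replicate libraries differed beyond counting error, so the ratio is a description and not a firm bound. Leaving out 1 experimental library at a time, it lay between 8.79-fold and 12-fold. The fragment passed the filter through the experimental libraries alone. Given that, its adjusted p was 0.000134 by limma voom and 0.0675 with its own spread.

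Its neighbours on the same tRNA showed the same layout. Arg-CCG 1-34 had 13, 59 and 10 reads in the experimental and 0, 2 and 0 in the control libraries, and Arg-CCG 1-35 had 10, 19 and 4 in the experimental and 0 in every control library. Together, 5' fragments that end at 32 to 35 had 38, 126 and 44 reads in the experimental and 0, 2 and 0 in the control libraries, a set chosen after its values were seen. This set contains the called fragment, with 15, 48 and 30 experimental reads, as do the class shares that follow for Arg-CCG and for all arginine reads. The fragment was not taken out, so their direction is partly built in. Within Arg-CCG, 5' fragments that end in the loop took 18.2%, 33.9% and 26.1% in the experimental and 0%, 2.63% and 0% in the control libraries. Every experimental library lay above every control library (26.1% ± 7.82 experimental and 0.877% ± 1.52 control, exact permutation p = 0.1, adjusted p = 0.583 over 35 measures).

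The same class was rare on the other arginine tRNAs. Over all arginine reads it took 3.14% ± 1.72 in the experimental and 0.0878% ± 0.152 in the control libraries, again without overlap (exact permutation p = 0.1, adjusted p = 0.4 over 8 measures). Within Arg-TCT it took 0.0690% in the experimental and 0% in the control libraries, and no exact read of it was seen on Arg-ACG, Arg-CCT or Arg-TCG. On Arg-CCT, the first loop base, position 32, was mismatched in 35 of 47 covering reads in the experimental and 8 of 11 in the control libraries. Such reads are outside the member rule, so the absence on Arg-CCT holds for exact reads only. With 404 to 885 arginine reads in a control library, 3 counts there amount to between 0.339% and 0.743%, and the 0.0878% rests on 2 reads.

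The second called fragment, Arg-CCG 15-28, starts in the D arm of the same tRNA and runs into the anticodon stem. It had 26, 47 and 26 reads in the experimental and 3, 2 and 0 in the control libraries, with every experimental library above every control library. It too passed the filter through the experimental libraries alone, and given that its log2 fold change was 3.02 ± 1.00 (SE, limma voom adjusted p = 0.0137). The adjusted p was 0.0507 with library totals and 0.123 with its own spread. It also missed the threshold without control library 2 (0.0529), control library 3 (0.263) or experimental library 1 (0.0602).

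Another fragment of Arg-CCG-3-1 gave values in the other direction. Arg-CCG 41-54, from the anticodon stem to the T loop, had 7, 23 and 7 reads in the experimental and 24, 24 and 6 in the control libraries. As a share of arginine reads this is 0.294%, 0.914% and 0.413% in the experimental libraries against 2.71%, 3.16% and 1.49% in the control libraries, without overlap, while the normalised counts overlapped. Its log2 fold change of -1.86 ± 0.97 was not called (limma voom adjusted p = 0.141).

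The third called fragment, Arg-CCT 37-76, is a long 3' fragment of Arg-CCT-4-1, which starts in the anticodon loop and keeps its whole CCA. It had 2, 4 and 2 reads in the experimental and 8, 14 and 7 in the control libraries, although the experimental libraries were deeper. It passed the filter through the control libraries alone, and given that its log2 fold change was -2.95 ± 1.04 (SE, limma voom adjusted p = 0.0219, and 0.0675 with its own spread). The adjusted p was 0.0543 without control library 2, 0.0573 without control library 3 and 0.186 without experimental library 3.

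The class it belongs to gave values in the same direction. That is partly built in, because the class contains the called fragment, with 8 experimental and 29 control reads. The fragment had passed the filter through the control libraries alone and was not taken out of the class. Only the shares within anticodons other than Arg-CCT are free of it. Fragments at the 3' end that start in the loop took 1.30%, 2.78% and 3.48% of arginine reads in the experimental and 5.76%, 7.38% and 4.46% in the control libraries. The groups did not overlap (2.52% ± 1.11 experimental and 5.87% ± 1.46 control, exact permutation p = 0.1, adjusted p = 0.4). Within Arg-CCT the class took 2.27% ± 1.30 in the experimental and 8.25% ± 2.49 in the control libraries, and within Arg-CCG 1.57% ± 1.19 experimental and 7.47% ± 3.73 control, both without overlap. Within Arg-TCT, where it took 5.73% ± 1.51 experimental and 3.96% ± 3.30 control, the groups overlapped and the means lay the other way. That direction depends on where the class ends. Arg-TCT reads from 36 to 72 start in the loop but stop short of the CCA and were not counted. They numbered 0, 4 and 0 in the experimental and 36, 1 and 1 in the control libraries. Reads of the table are at most 40 nt, so a 3' fragment with CCA that starts before position 37 could not be listed.

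**Figure D4:**
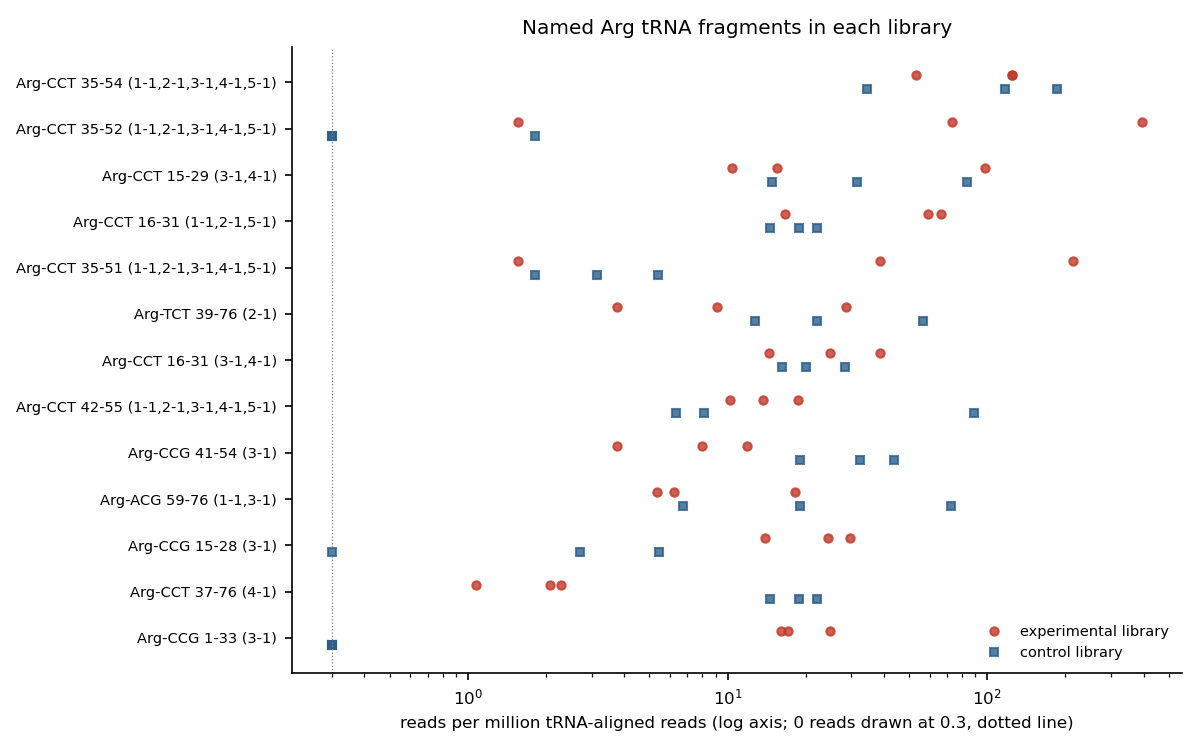
CPM of all tRNA-aligned reads (log axis, 0 reads drawn at 0.3) of 13 arginine fragments in each experimental (red circles) and control library (blue squares), the experimental row above the control row. Arg-CCG 1-33 has no control read, and Arg-CCT 37-76 lies lower in all experimental libraries, with 2, 4 and 2 reads in the experimental and 8, 14 and 7 in the control libraries.

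Of the 5 most abundant members by mean share, 3 came from the stretch of Arg-CCT between the anticodon and the T loop. They are printed here because they differ in their last bases alone, with the anticodon bases they keep in capitals.
Arg-CCT 35-54: CTaagccagggattgtgggt
Arg-CCT 35-52: CTaagccagggattgtgg
Arg-CCT 35-51: CTaagccagggattgtg
All 3 start at position 35, after the first anticodon base, and match all 5 Arg-CCT tRNAs.

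They were spread unevenly over the libraries. Arg-CCT 35-54 had 109, 240 and 99 reads in the experimental and 19, 87 and 59 in the control libraries, and at a mean of 8.03% of arginine reads it was the most abundant member. Its groups overlapped and it was not called (log2 fold change 0.29 ± 0.89, limma voom adjusted p = 0.842). Arg-CCT 35-52 had 344, 3 and 136 reads in the experimental and 1, 0 and 0 in the control libraries, and Arg-CCT 35-51 had 188, 3 and 72 in the experimental and 1, 4 and 1 in the control libraries. Both were abundant in experimental libraries 1 and 3 and nearly absent from experimental library 2, and neither passed the filter.

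The same split held for all internal Arg-CCT reads that end there, a set chosen after its values were seen and so not tested. Reads ending at 50 to 52 numbered 769, 27 and 297 in the experimental and 10, 12 and 2 in the control libraries. They took 44.8%, 3.00% and 33.1% of Arg-CCT reads in the experimental and 3.30%, 4.43% and 1.28% in the control libraries, so experimental library 2 lay within the control range. Reads ending at 54 or 55 numbered 182, 396 and 174 in the experimental and 119, 117 and 78 in the control libraries, or 24.7% ± 17.3 experimental and 44.1% ± 5.43 control of Arg-CCT reads. Reads that start at 35 took 37.8% ± 3.46 in the experimental and 28.7% ± 17.0 in the control libraries, where control library 1 stood at 9.24% and the other two at 35.8% and 41.0%.

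**Figure D5:**
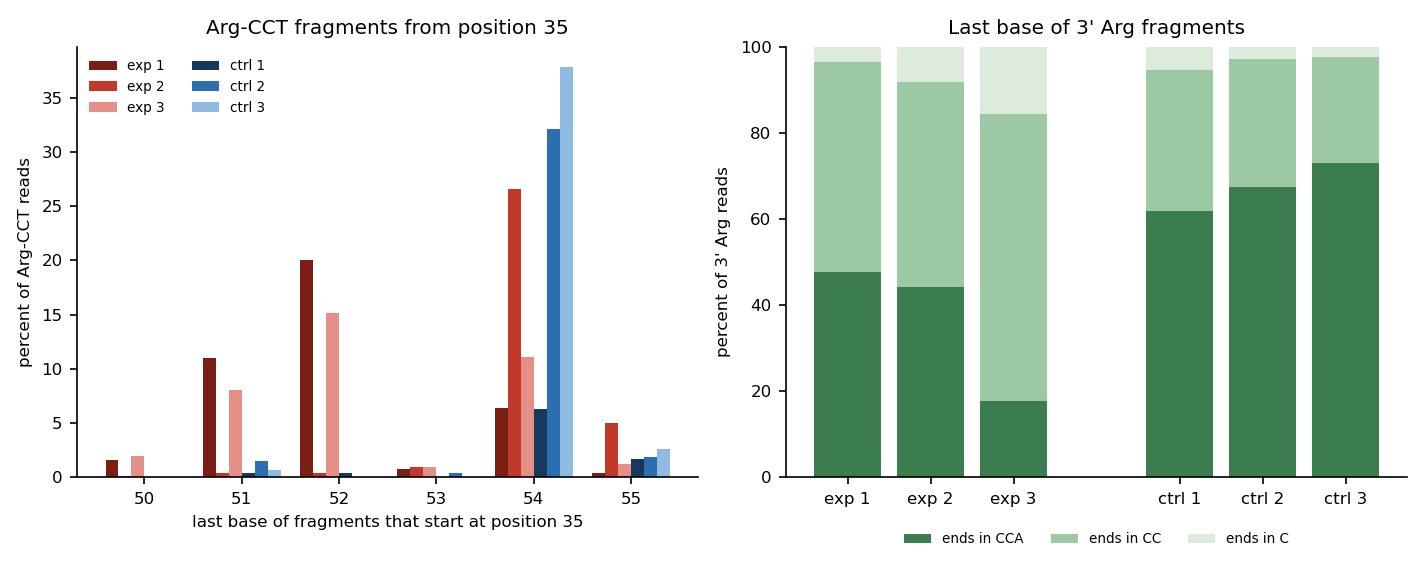
Left, percent of Arg-CCT reads that start at position 35 and end at 50 to 55, with 3 experimental (reds) and 3 control libraries (blues). Ends at 51 and 52 stand out in experimental libraries 1 and 3, and end 54 in the others except control library 1. Right, 3' arginine reads by last base, where CCA takes 17.7% to 47.7% in the experimental and 61.9% to 73.1% in the control libraries.

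Reads that start in the D arm of Arg-CCT were the other large group. Internal reads that start at 12 to 16 took 36.4% ± 3.13 of Arg-CCT reads in the experimental and 34.1% ± 2.86 in the control libraries, and the groups overlapped. A pair of sequences covers positions 16 to 31, one from Arg-CCT-1-1, 2-1 and 5-1 and one from Arg-CCT-3-1 and 4-1, and they tell these copies apart.
Arg-CCT 16-31 of 1-1, 2-1 and 5-1: tggataaggcactggc
Arg-CCT 16-31 of 3-1 and 4-1: tggataaggcattggc
The first had 58, 114 and 31 reads in the experimental and 8, 14 and 7 in the control libraries. The second had 34, 48 and 27 in the experimental and 11, 12 and 9 in the control libraries. Neither was called: their log2 fold changes were 1.34 ± 0.94 (limma voom adjusted p = 0.303) and 0.44 ± 0.94 (adjusted p = 0.771).

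Further named Arg-CCT members followed single libraries. Arg-CCT 15-29 of the copies 3-1 and 4-1 had 86, 20 and 29 reads in the experimental and 46, 11 and 10 in the control libraries, and Arg-CCT 42-55 had 12, 36 and 19 in the experimental and 49, 6 and 2 in the control libraries. Control library 1 held most of the control reads of both. Neither was called (log2 fold changes -0.18 ± 0.92 and -0.11 ± 0.97), and both signs turned without control library 1, to 0.59 and 1.12.

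Arg-TCT tRNAs, whose genes mostly carry an intron, gave mainly long 3' pieces. Fragments at the 3' end that start after the loop took 60.8% ± 14.6 of Arg-TCT reads in the experimental and 50.5% ± 19.6 in the control libraries, with overlap (exact permutation p = 0.6). Most began at 39 or 40, right behind the anticodon loop, with 59, 331 and 173 reads in the experimental and 39, 127 and 31 in the control libraries. Arg-TCT reads that end at 72, short of the CCA, are not in this class. They took 1.10%, 7.45% and 7.87% of Arg-TCT reads in the experimental and 49.9%, 11.2% and 18.3% in the control libraries. The leading member is printed with its CCA in capitals.
Arg-TCT 39-76: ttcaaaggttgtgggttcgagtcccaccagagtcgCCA
It had 8, 55 and 7 reads in the experimental and 7, 42 and 7 in the control libraries, so the second library of each group held most of its reads. Its log2 fold change was -1.13 ± 0.96 and it was not called (limma voom adjusted p = 0.404).

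Arg-ACG had both 3' and internal fragments. This tRNA is known for inosine at the first anticodon base, which lets it read several codons. Fragments at the 3' end that start after the loop took 46.7% ± 11.6 of its reads in the experimental and 53.5% ± 8.53 in the control libraries (exact permutation p = 0.5). Its leading tested member ran from the T loop to the end.
Arg-ACG 59-76: ctcctggctggctcgCCA
It had 16, 12 and 10 reads in the experimental and 40, 5 and 6 in the control libraries, with control library 1 far above the other control libraries, and was not called (log2 fold change -1.06 ± 0.97, limma voom adjusted p = 0.439). Internal Arg-ACG reads that end at 69 had 6, 237 and 15 reads in the experimental and 11, 8 and 8 in the control libraries, so that experimental library 2 alone stood apart. Within it, Arg-ACG 54-69 had 129 reads, against 0 and 6 in the other experimental and 7, 5 and 2 in the control libraries. At the 5' end, Arg-ACG 1-14, which leads the fragments that stop before the loop by mean share, had 1 read in all, in control library 3, the shallowest, and other members of that class had more reads.

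Arg-TCG was the rarest anticodon over all 6 libraries together, though not within control libraries 2 and 3, with 72, 163 and 90 reads in the experimental and 44, 110 and 40 in the control libraries. Fragments at the 3' end that start after the loop took 39.6%, 51.6% and 60.6% of them in the experimental and 28.7%, 36.4% and 21.0% in the control libraries. The groups did not overlap (50.6% ± 10.5 experimental and 28.7% ± 7.69 control, exact permutation p = 0.1, adjusted p = 0.583). That depends on where the class ends. Arg-TCG reads that end at 72, short of the CCA, were not counted. They took 1.39%, 3.38% and 1.67% of Arg-TCG reads in the experimental and 40.2%, 2.73% and 2.47% in the control libraries. Counting them would put control library 1 above every experimental library, so the groups would overlap. The leading Arg-TCG member by mean share covered the anticodon loop and most of its stem, with the anticodon in capitals.
Arg-TCG 29-43: tgactTCGgatcaga
It had 0, 7 and 0 reads in the experimental and 0, 10 and 5 in the control libraries, too few to be tested.

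Within-anticodon shares, 35 in all, gave an exact permutation p of 0.1 at the lowest and no adjusted p under 0.583. Besides those given, internal reads of Arg-CCT took 94.6% ± 3.42 in the experimental and 87.0% ± 2.11 in the control libraries without overlap. Arg-TCT fragments at the 5' end that stop before the loop took 0.975% ± 0.583 experimental and 0.169% ± 0.293 control, also without overlap, on few reads.

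Among 3' fragments that keep any base of the CCA, the share with a complete CCA did not overlap between the groups. Among arginine reads that reach the 3' end, the share that ended in the full CCA was 47.7%, 44.2% and 17.7% in the experimental libraries and 61.9%, 67.4% and 73.1% in the control libraries. The share that ended in CC, with the last base missing, was 48.8%, 47.7% and 66.7% in the experimental and 32.8%, 29.8% and 24.6% in the control libraries. Neither overlapped between groups (CCA 36.5% ± 16.4 experimental and 67.4% ± 5.60 control, CC 54.4% ± 10.7 experimental and 29.1% ± 4.16 control), each with an exact permutation p of 0.1 and an adjusted p of 0.15 over 3 measures. Experimental library 3 had the fewest complete ends. Reads that ended in a single C took 9.05% ± 6.10 in the experimental and 3.45% ± 1.60 in the control libraries (exact permutation p = 0.2). Reads ending at 72 or 73, with no base of the CCA, are not in these shares. Those ending at 72 took 0.294%, 2.54% and 1.71% of arginine reads in the experimental and 16.9%, 3.82% and 3.96% in the control libraries. Reads ending at 76 took 18.5% of arginine reads in control library 1, and 5.12% and 14.6% in experimental libraries 1 and 2. Counting the reads that end at 72 or 73 would lower the CCA share most in control library 1. That library would then lie below experimental libraries 1 and 2, so the groups would overlap.

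The mean CCA share was lower in the experimental libraries for each of the 5 anticodons, which were not tested one by one. Arg-ACG had 29.8% ± 9.12 in the experimental and 57.4% ± 12.4 in the control libraries, Arg-CCT had 23.0% ± 10.4 experimental and 58.2% ± 17.7 control, and Arg-TCT had 44.1% ± 19.8 experimental and 74.1% ± 5.22 control. Arg-CCG and Arg-TCG had 10.5 to 93.5 such reads a library after splitting shared sequences. Arg-CCG had 82.6%, 28.9% and 15.5% in the experimental and 70.3%, 80.0% and 69.7% in the control libraries, so that experimental library 1 lay above every control library, and the experimental mean of 42.3% was 22.2% without it. Arg-TCG had 71.9%, 44.9% and 9.17% in the experimental and 74.1%, 63.0% and 90.5% in the control libraries, with an experimental mean of 42.0%, or 27.0% without library 1. Among the 3' reads of the other nuclear tRNAs the share was 71.6% ± 10.5 in the experimental and 87.0% ± 3.03 in the control libraries, without overlap, so it moved with the group there too, and its part in the arginine values was not tested. The arginine share was below that of the other tRNAs in 6 of 6 libraries, by 27.3 percentage points on average.

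Summed arginine fragments were set beside 42 other nuclear anticodons with enough reads, over the same 6 libraries. Those whose log2 CPM moved most like them were Glu-CTC (Pearson r = 0.92), Gly-TCC (0.90) and Glu-TTC (0.89). The points share library depth and scaling, so the values describe these libraries and carry no test.

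Sequences outside the member rule gave the other reads on these tRNAs. Mismatched sequences on mature arginine tRNAs, 1583 of them, took 0.0638% ± 0.0248 of tRNA-aligned reads in the experimental and 0.0452% ± 0.0111 in the control libraries (exact permutation p = 0.3). Exact sequences found only in arginine tRNA precursors, 199 of them, took 0.0537% ± 0.0172 experimental and 0.0581% ± 0.0175 control (p = 1). Mismatches are described at 3 positions, which were named after their values were seen. On Arg-CCT, position 32, a known site of 3-methylcytosine, was mismatched in 35 of 47 covering reads in the experimental (74.5%) and 8 of 11 in the control libraries (72.7%), mostly as C32T. On Arg-CCG, position 9, a known site of N1-methylguanine in other tRNAs, was mismatched in 98 of 416 reads in the experimental libraries (23.6%), most often as G9T and G9C, and just 2 control reads covered it. On Arg-ACG, A34G at the inosine site stood in 14 of 37 reads in the experimental (37.8%) and 4 of 20 in the control libraries (20.0%). Experimental library 1 gave 7 of its 9 reads, and without it the experimental share was 25.0% (7 of 28). Substitutions give the base of the tRNA, its position and the base read.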

How the data were processed

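Small RNA reads were compared between 3 experimental and 3 control libraries of rat muscle, grouped by their titles. Per the labels' protocols, RNA was taken with Trizol and made into libraries with an NEBNext small RNA kit. Per the file headers, the authors' table lists each distinct read sequence of 14 to 40 nt under the mature tRNA (CCA included) or precursor that it matches with up to 1 mismatch, with the deposited raw count in each library. Which aligner was used is not given in the sources used here. Only mm9 is named in the submitters' processing notes, a mouse build, which is not the build of these rat coordinates. The deposited counts equalled those in the read names of the 6 alignment files for every sequence. Reads with more differences from the reference are missing, as are longer reads. Replicate libraries differed beyond sampling noise (chi-square per degree of freedom 45.1 to 246), so none was a copy of another. The tRNA-aligned totals were 876494, 1927269 and 1866227 in the experimental and 550004, 740627 and 316990 in the control libraries.

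A sequence that matched several tRNAs was still counted 1 time. Fragments of the whole table were kept if 3 libraries reached the CPM that 10 reads give in the library of median size and the total was 15 or more, scaled by trimmed means of M values (trims 0.3 and 0.05) and fitted by voom of limma 3.58.1 (R 4.3.3, offset 0.5). The group was the one term, and p-values were adjusted by Benjamini-Hochberg over all 2226 tested, with a threshold of 0.05. The fit was tested on simulated data with a smaller spread than these libraries showed, so that test does not speak for calls at the spread seen here. The scaling factors were 1.463, 0.562 and 0.939 in the experimental and 0.986, 1.099 and 1.194 in the control libraries. A count test was not used because 1812 lines of text between the counts kept the table from passing as a count file. The prior degrees of freedom came out infinite, so all fragments shared 1 spread, with standard errors between 0.872 and 1.07. Two-sided exact permutation tests over libraries compared shares, in Python 3.11.15.

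Classes are 5' (first base 1), 3' (last base among the final 3) and internal. The anticodon loop is the 7 bases with the anticodon in the middle. Named fragments were the 10 most abundant members by mean share, the leading member of each anticodon and class, and up to 10 called members by size of change. Members, lists and rules were chosen with earlier results of these data known. The likeness list took anticodons with at least 60 reads, a minimum set after the data were seen. Alternatives covered scaling, the filter, the spread, the weights, a replicate block, mismatches, shared anticodons, the 5' rule, the set of other tRNAs and leaving out each library.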

Additional observations from a re-analysis of the deposited data

How the results depend on the processing

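Members are read thinly, with 404 to 885 arginine reads in a control library, and 16 of 868 members were tested. Calls on fragments rest on a spread pooled over all of them. The quasi-likelihood and negative binomial count tests that were planned as alternatives were not run, because the table did not pass as counts.

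Of the members, 2 were called higher and 1 lower with median-of-ratios factors, limma trend weights and exact matches alone in the fit. With library totals 1 was called higher. Without the filter on low counts 24 were called higher and 12 lower, since all 77567 sequences were then tested. With each fragment's own spread 0 were called in either direction. Without 1 library at a time, between 1 and 4 were called higher and between 0 and 3 lower. The 4 came without control library 1 or experimental library 2, the 1 without experimental library 1, the 3 without experimental library 2 and the 0 without experimental library 3.

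Signs turned for values that were not called. The Arg-ACG sum had a log2 fold change of -0.0021 with median-of-ratios factors, -0.31 with library totals and -0.13 with sequences of 1 anticodon alone, and the Arg-TCT sum had 0.014 with mismatches included. Arg-CCT 36-54 had -0.023 with library totals, Arg-CCT 42-55 had 0.31 without the filter and 0.0094 with exact matches alone, and Arg-CCT 15-29 had 0.23 without the filter. The cause was not tested.

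Without 1 library at a time, log2 fold changes ran from -0.44 to 0.37 for Arg-ACG, -0.85 to 0.039 for Arg-TCG and -0.56 to 0.021 for Arg-TCT. Among fragments they ran from -0.28 to 0.90 for Arg-CCT 35-54, -0.56 to 1.16 for Arg-CCT 36-54, -1.20 to 1.12 for Arg-CCT 42-55, -1.05 to 0.59 for Arg-CCT 15-29 and -1.74 to 0.14 for Arg-TCT 40-76 of copy 3-1. In percentage points, the arginine share ran from -0.0196 to 0.0709 and the Arg-CCG share from -0.793 to 1.94. Within Arg-ACG, 5' fragments before the loop ran from -0.517 to 0.0578 and 3' fragments from the loop from -0.365 to 0.303, and within Arg-TCG 3' fragments from the loop ran from -4.85 to 0.363.

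Arginine tRNAs against the other nuclear tRNAs kept every direction. With 5 libraries the exact permutation test cannot go below p = 0.0625, so no value passes. The differences then ran from -21.4 to -16.5 for 5' fragments before the loop, -75.6 to -70.9 for those in it, -1.79 to -1.24 for those after it, 3.37 to 4.62 for 3' fragments from the loop, 21.6 to 26.8 for those after it, 62.6 to 68.2 for internal reads and -9.37 to -7.97 nt in length. Without glycine tRNAs the difference in 3' fragments that start after the loop was 13.3 with an adjusted p of 0.107.

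Replicate numbers did not pair the libraries: deviations of same-numbered libraries correlated at -0.31, -0.057 and 0.14. With a replicate block, 2 members were called higher and 1 lower, and the block changed no other call on arginine fragments or sums. Over all fragments it called 367 higher and 141 lower. Leaving out libraries from the CCA shares of single anticodons and from the mismatch shares was chosen after seeing the data.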
